A study of Mus musculus with 8 samples.

Results

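Transcripts of the Ndfip adaptors and the Nedd4-family ubiquitin ligases were measured with bulk RNA-seq in osteoblastic cells (OBCs), which lay down and mineralize bone. The set was chosen by gene symbol and held 9 of the 17068 genes of the deposited table, namely the adaptors Ndfip1 and Ndfip2 and the ligases Nedd4, Nedd4l, Itch, Wwp1, Wwp2, Smurf1 and Smurf2. There were 4 libraries of L-OBCs, taken from mice with BCR-ABL+ B-ALL (acute lymphoblastic leukemia of the B lineage, here driven by the fusion kinase BCR-ABL), and 4 libraries of C-OBCs, taken from healthy mice. All mice were female C57BL/6J of about 10 weeks, and all cells were sorted by FACS straight from long bones digested with collagenase IV. The sorting gate, the way the leukemia was started and the number of mice behind each library are not given in the sources used here, so the spread between libraries may be technical. The series asks how leukemia changes bone-forming cells, in a study of sclerostin and bone loss.

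Nedd4-family ligases attach ubiquitin to other proteins through a C-terminal HECT domain, and they pick their substrates through WW domains, which bind short PY motifs (proline, proline, any residue, tyrosine). Ndfip1 and Ndfip2 are small membrane proteins of the Golgi and endosomes that carry PY motifs, recruit these ligases to membranes and relieve their autoinhibition. In bone, Smurf1 is best known for the degradation of Smad1 and Runx2, and mice without it gain bone with age; Wwp1, Itch and Nedd4 have also been tied to osteoblast function in mice. The set was proposed because Ndfip2 was lower in every leukemic library. The difference between L-OBCs and C-OBCs was therefore part of the choice, and it is described below for the 9 genes without a test.

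PY motifs of Ndfip2 can be read in its coding sequence (GENCODE M21, GRCm38, transcript strand, chromosome 14). The longest coding sequence has 338 codons, and the in-frame run of codons CCN, CCN, any codon and TAT or TAC, read on the coding strand only, occurs at codons 150 to 153 and 176 to 179. Both are given because motifs of this form are known to bind WW domains, with the motif codons in capitals within 60 bases of coding sequence. Only this pattern was searched, so other contacts of the adaptor with the ligases may be missed. In both, the free codon is a proline codon as well.
Ndfip2 motif 1: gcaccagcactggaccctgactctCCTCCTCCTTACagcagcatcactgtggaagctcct
Ndfip2 motif 2: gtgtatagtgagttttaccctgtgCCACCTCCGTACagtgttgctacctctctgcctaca

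Ndfip1 also holds 2 such motifs, in a coding sequence of 221 codons. Of 21501 genes with a complete coding sequence, 6.02% hold at least 1 motif and 0.712% hold at least 2. Among the 3403 genes whose coding length lies within 10% of that of Ndfip2, 9 (0.264%) hold at least 2. None of the coding sequences of the 7 ligases holds the pattern. A match describes these letters and does not show a binding site.

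Libraries stood apart in the lengths of their transcripts, most of all within the leukemic group. Across genes, which are not independent replicates, the rank correlation of a gene's deviation from its mean over libraries with its transcript length was -0.289, -0.305, -0.083 and 0.298 in L-OBCs 1 to 4 and 0.037, 0.129, 0.112 and 0.281 in C-OBCs 1 to 4. L-OBCs 1 and 2 were thus richer in short transcripts, and L-OBCs 4 and C-OBCs 4 in long ones. Read depth is unknown, because the table holds no counts. The summed FPKM ran from 456191 to 632055 in L-OBCs and from 477127 to 500933 in C-OBCs, and correlations between libraries from 0.89 to 0.975. Over all 11214 genes tested, limma gave no call at an adjusted p under 0.05 (0% in either direction). At an unadjusted p under 0.05 it gave 279 higher and 463 lower genes in L-OBCs, a split that was 180 and 733 with totals rescaled to TPM and 366 and 389 with median scaling.

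Ndfip2 had 6.37, 9.75, 8.54 and 7.56 FPKM (fragments per kilobase of transcript, scaled to the mapped fragments of the library) in L-OBCs 1 to 4, and 14.5, 14.6, 15.7 and 14.1 FPKM in C-OBCs 1 to 4. All L-OBC libraries lay below all C-OBC libraries, with a gap between 9.75 FPKM in the highest L-OBC library and 14.07 FPKM in the lowest C-OBC library. The means were 8.06 ± 1.44 FPKM in L-OBCs and 14.7 ± 0.679 FPKM in C-OBCs (SD, n = 4 each), so the leukemic mean was 0.547 times the control mean. On the log2(FPKM + 1) scale, on which all differences are given and which understates those of low genes, the difference was -0.81 (SE 0.12). Standard errors of the adaptors and ligases of the set come from their own variance, and those of other genes from limma. The limma standard error of Ndfip2 was 0.17, so the printed ones are not comparable with those of other genes. The coefficient of variation was 17.8% among L-OBCs and 4.61% among the tightly grouped C-OBCs. For the 4874 genes with a mean of 5 to 30 FPKM, the median coefficient of variation was 24.3% in L-OBCs and 21.6% in C-OBCs. A choice by separated groups favours genes with little spread within groups, so this comparison is description only. Ndfip2 (gene ID 76273) spans chromosome 14, 105258591 to 105309298 in GRCm38.p6. In bulk libraries, fewer cells of a type and less RNA per cell cannot be told apart. None of the 31-base words of its coding transcripts occurs in a transcript of another gene, and none of its exons overlaps an exon of another gene, so sharing of reads with a near-identical copy is not seen in this annotation.

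Ndfip1, the more widely known adaptor, which holds T-cell activation in check through Itch in mice, did not share this pattern. It had 228, 398, 307 and 354 FPKM in L-OBCs 1 to 4 and 325, 350.1, 284 and 268 FPKM in C-OBCs 1 to 4. The groups overlapped, with the lowest and the highest value of the 8 both among L-OBCs, and the difference was 0.05 (SE 0.19). Ndfip2 transcripts therefore made up 2.48 ± 0.298% of the summed adaptor FPKM in L-OBCs and 4.63 ± 0.576% in C-OBCs (SD, n = 4 each). Ndfip1 exceeded Ndfip2 by 35.8 to 46.8 times in L-OBCs and by 18.2 to 23.9 times in C-OBCs. The summed level of both adaptors, which Ndfip1 sets, was 330 ± 74.1 FPKM in L-OBCs and 321 ± 37.5 FPKM in C-OBCs.

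**Figure D1:**
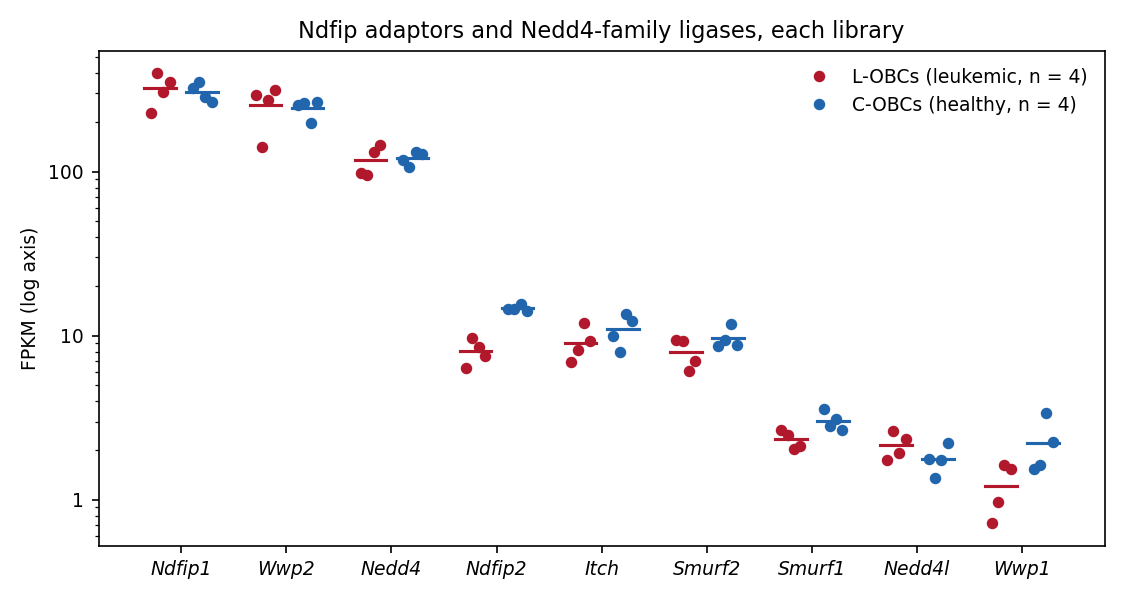
FPKM on a log axis for each of the 9 genes, with 1 point per library, L-OBCs in red at the left and C-OBCs in blue at the right, and bars at the group means (n = 4 each). For Ndfip2 the L-OBC points lie between 6.37 and 9.75 FPKM, all below the C-OBC points, while the groups overlap in the other 8 genes.

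Wwp2 and Nedd4 were by far the most abundant ligases. Wwp2, a ligase that in mice takes part in craniofacial and cartilage development, had 292, 141, 274 and 314 FPKM in L-OBCs 1 to 4 and 254, 263, 197 and 268 FPKM in C-OBCs 1 to 4. The values of L-OBCs 2 and C-OBCs 3 were the lowest of their groups, the groups overlapped, and the difference was 0.0028 (SE 0.28). Nedd4, the founding ligase of the family, had 98.8, 95.0, 132 and 145 FPKM in L-OBCs and 119, 108, 133 and 129 FPKM in C-OBCs, with overlapping groups and a difference of -0.07 (SE 0.16). Together these ligases held 90.9 to 95.4% of the FPKM summed over the 7 ligases in L-OBCs and 90.7 to 94.1% in C-OBCs. The sum was 396 ± 95.1 FPKM in L-OBCs and 395 ± 25.3 FPKM in C-OBCs, and L-OBCs 2, with 259.9 FPKM, was the lowest of the 8 libraries.

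Wwp2 is also the host of a microRNA gene of cartilage. In GRCm38.p6, Mir140 lies in an intron of Wwp2 at chromosome 8, 107551244 to 107551313, on the plus strand, within the Wwp2 span of 107436334 to 107559290. Its product miR-140-3p is shown, from RefSeq and with the seed (bases 2 to 8) in capitals, because this abundant ligase gene carries it. The microRNA itself was not measured here.
mmu-miR-140-3p: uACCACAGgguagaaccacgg

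**Figure D2:**
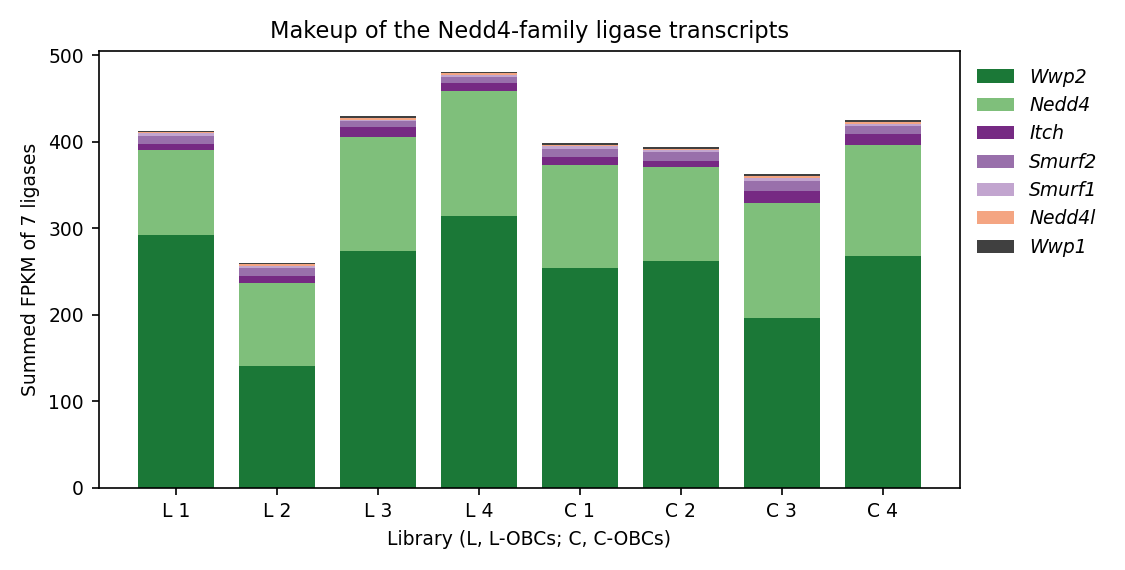
FPKM of the 7 ligases stacked for each library, L-OBCs 1 to 4 at the left and C-OBCs 1 to 4 at the right. Wwp2 and Nedd4 fill at least 90.7% of every bar, and the bar of L-OBCs 2 is the lowest at 259.9 FPKM.

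Itch and Smurf2 stood at a middle level. Itch, a ligase of JunB and other regulators of immune cells, had 6.91, 8.21, 11.9 and 9.26 FPKM in L-OBCs and 10.03, 7.97, 13.6 and 12.3 FPKM in C-OBCs. The groups overlapped over most of their range, and the difference was -0.25 (SE 0.22). Smurf2, which acts on TGF-beta receptors together with Smad7, had 9.47, 9.32, 6.06 and 7.04 FPKM in L-OBCs and 8.69, 9.37, 11.9 and 8.73 FPKM in C-OBCs. L-OBCs 1 and 2 lay within the control range and L-OBCs 3 and 4 below it, with a difference of -0.26 (SE 0.17).

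Smurf1, Nedd4l and Wwp1 were the low members. Smurf1 had 2.68, 2.48, 2.04 and 2.13 FPKM in L-OBCs and 3.57, 2.82, 3.09 and 2.66 FPKM in C-OBCs. Its groups met at L-OBCs 1 and C-OBCs 4, and 15 of the 16 pairs of an L-OBC with a C-OBC library had the L-OBC library lower; the difference was -0.28 (SE 0.095). Wwp1, a close relative of Wwp2 and Itch, had 0.72, 0.97, 1.63 and 1.55 FPKM in L-OBCs and 1.55, 1.64, 3.40 and 2.25 FPKM in C-OBCs. L-OBCs 1 and 2 were below all C-OBC libraries and C-OBCs 3 was far above the other libraries; the mean of 1.22 ± 0.443 FPKM in L-OBCs was 0.551 times the mean of 2.21 ± 0.852 FPKM in C-OBCs, and the difference was -0.52 (SE 0.23). Wwp1 thus had a ratio of means like that of Ndfip2 at a level close to the floor of the table, with a coefficient of variation of 36.4% in L-OBCs and 38.6% in C-OBCs. Nedd4l, the ligase of the epithelial sodium channel, had 1.74, 2.64, 1.94 and 2.34 FPKM in L-OBCs and 1.77, 1.35, 1.76 and 2.23 FPKM in C-OBCs, with overlapping groups and a difference of 0.19 (SE 0.13). Of the 31-base words of Wwp1, 9.79% occur in other genes, nearly all of them in Gm13416, so part of its value is uncertain. The shares were 4.26% for Itch (in Gm16223), 1.86% for Nedd4, 1.58% for Nedd4l, 0.523% for Smurf2 and 0% for Ndfip1, Wwp2 and Smurf1. The library kit does not mark strand, and exons on the opposite strand overlap 1.5% of the exon bases of Nedd4l and 0.713% of those of Wwp1.

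The 9 genes are spread over the genome. In GRCm38.p6, Ndfip1 (65113) spans chromosome 18, 38418907 to 38465197, and Nedd4l (83814) chromosome 18, 64884480 to 65217826. Nedd4 (17999) spans chromosome 9, 72662331 to 72749851, Itch (16396) chromosome 2, 155133481 to 155226855, and Wwp1 (107568) chromosome 4, 19608296 to 19709004. Smurf1 (75788) spans chromosome 5, 144876495 to 144965899, and Smurf2 (66313) chromosome 11, 106820061 to 106920747. Wwp2 carries gene ID 66894.

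The levels of the 9 genes were set side by side within libraries, since FPKM is scaled to length. Over all 8 libraries the means were 314 ± 54.3 FPKM for Ndfip1, 250.2 ± 55.4 for Wwp2, 119.8 ± 17.9 for Nedd4, 11.4 ± 3.71 for Ndfip2, 10.03 ± 2.38 for Itch, 8.82 ± 1.74 for Smurf2, 2.68 ± 0.497 for Smurf1, 1.97 ± 0.41 for Nedd4l and 1.71 ± 0.823 for Wwp1 (SD, n = 8). Each gene was compared with the next by an exact two-sided paired permutation test of log2(FPKM + 1) over the 8 libraries, which cannot go below p = 0.0078, with Benjamini-Hochberg adjustment over the 8 pairs. The neighbours were taken from the mean levels of these same libraries, so the p-values describe gaps in an order that the data set. The pairs with Ndfip2 are given as counts with no p, since its lower L-OBC values were part of the choice. They were still among the 8 pairs of the adjustment, so the adjusted p-values of the other pairs depend on them. Wwp2 exceeded Nedd4 in 8 of 8 libraries, by 1.03 ± 0.333 on the log2 scale (exact permutation p = 0.0078, adjusted p = 0.0208). Smurf2 exceeded Smurf1 by 1.41 ± 0.186, in 8 of 8 libraries with the same exact permutation p. Nedd4 was above Ndfip2 in 8 of 8 libraries, by 3.33 ± 0.479. Ndfip1 was above Wwp2 in 6 of 8 libraries (exact permutation p = 0.0938, adjusted p = 0.15), and Smurf1 above Nedd4l in 6 of 8 (exact permutation p = 0.0547, adjusted p = 0.109). Itch was above Smurf2 in 2 of 4 L-OBC and 3 of 4 C-OBC libraries (exact permutation p = 0.328 over all 8, adjusted p = 0.375). The order of the other pairs differed between the groups: Ndfip2 was above Itch in 1 of 4 L-OBC and 4 of 4 C-OBC libraries, and Nedd4l was above Wwp1 in 4 of 4 L-OBC and 1 of 4 C-OBC libraries (exact permutation p = 0.375 over all 8, adjusted p = 0.375). These differences in order were not tested.

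Among all genes tested, Ndfip1, Wwp2 and Nedd4 lay at the 94.8th to 98.4th percentile of the mean level, Ndfip2, Itch and Smurf2 at the 50.6th to 57.0th, and Smurf1, Nedd4l and Wwp1 at the 9.33rd to 19.6th. Ndfip2 ranked 4 among the 9 genes in all C-OBC libraries, and 6, 4, 5 and 5 in L-OBCs 1 to 4.

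Set beside all genes, the L-OBC minus C-OBC difference was below 0 in 6 of the 9 genes, where 53.6% of the 11214 genes tested were below 0; with the length trend removed it was below 0 in 5 of the 9, and with totals rescaled to TPM in 8. The median of the 9 was -0.25 and that of all genes tested was -0.02; the median of the 9 was -0.14 with the length trend removed and -0.03 without L-OBCs 1 and 2. Groups did not overlap, with L-OBCs lower, in 1 of the 9 genes, Ndfip2, which the choice fixed; this was so in 2.90% of all genes tested. All 9 passed the filter of at least 1 FPKM in at least 4 libraries, Wwp1 with 6 libraries. The authors' deposited table gives a log2 ratio of L-OBCs over C-OBCs of -0.85 for Ndfip2, -0.84 for Wwp1, -0.34 for Smurf1 and 0.29 for Nedd4l, the most extreme of the 9 in each direction; the labels and headers do not say how it was calculated.

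Some of the differences moved when the length trend or L-OBCs 1 and 2 were taken out. When each library was corrected for length, the difference was -0.77 for Ndfip2, -0.40 for Wwp1, -0.19 for Smurf1 and Smurf2, -0.14 for Itch and 0.26 for Nedd4l. Without L-OBCs 1 and 2 it was -0.80 for Ndfip2, -0.27 for Wwp1, -0.38 for Smurf1, -0.49 for Smurf2, -0.03 for Itch, 0.19 for Nedd4 and 0.18 for Nedd4l. In this setting it was 0.27 for Wwp2 and 0.11 for Ndfip1. The Ndfip2 groups did not overlap either with the length trend removed or with totals rescaled to TPM; those of Smurf1 and Smurf2 did not overlap with TPM, and overlapped with the length trend removed. Rescaling to TPM moved the median of all genes to -0.14; relative to that median the difference of Ndfip2 was -0.79, and relative to the median without rescaling it was -0.78. Ndfip1, Nedd4 and Wwp2 had no stable direction, since each changed sign in 6 of 20 alternative processings.

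**Figure D3:**
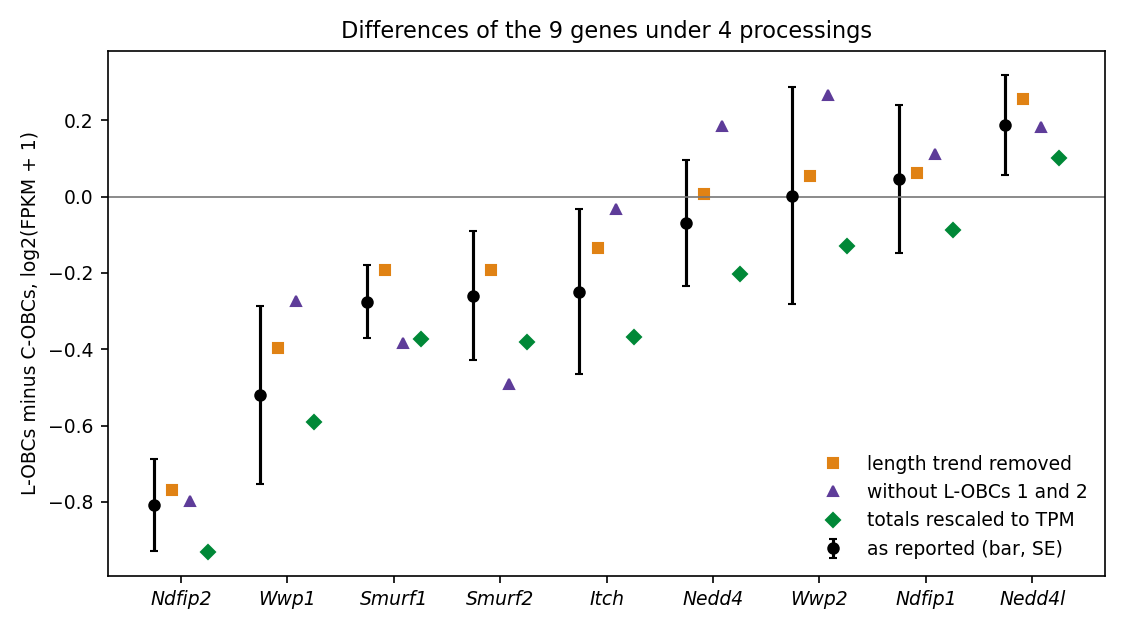
L-OBC minus C-OBC difference of log2(FPKM + 1) for the 9 genes under 4 processings, with the standard error of the reported value (n = 4 libraries per group). Ndfip2 stays between -0.93 and -0.77, while the points of Nedd4, Wwp2 and Ndfip1 lie on both sides of 0.

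The other genes of the pathway were described from 5 lists of 80 genes, 76 of which could be tested with limma over all genes. The lists were drawn up with earlier results of these data known, so counts of negative differences in them are description only. None passed an adjusted p under 0.05 (adjusted over all 11214 genes tested), in a comparison where 0% of all genes were called in either direction, with 0.144 as the smallest adjusted p of any gene. Without adjustment, 1 of the 76 was higher and 8 were lower at p under 0.05, where 2.49% of all genes were higher and 4.13% lower. Groups did not overlap in 8 of the 76, all lower in L-OBCs, where 0.954% of all genes were higher and 2.90% lower without overlap. The 2 remaining members of the Nedd4 family, Hecw1 and Hecw2, were near the floor of the table, at 0 to 0.13 and 0.03 to 0.18 FPKM in L-OBCs and at 0 to 0.02 and 0 to 0.22 FPKM in C-OBCs, and were not tested.

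HECT ligases outside the Nedd4 family held 5 of these 8 genes. Of the 17 tested, 13 had a negative difference, with a median of -0.22, where 53.6% of all genes tested were negative. The genes without overlap included Trip12, Herc2 and Huwe1, the last of which was named after its values were seen. Trip12, a ligase of the ubiquitin fusion degradation pathway, had 3.19, 4.82, 4.78 and 4.34 FPKM in L-OBCs and 6.02, 7.90, 7.92 and 7.67 FPKM in C-OBCs, a difference of -0.67 (SE 0.19, limma adjusted p = 0.613). Herc2, of the DNA damage response, stood at 1.80 ± 0.30 FPKM in L-OBCs and 2.76 ± 0.516 FPKM in C-OBCs, and Huwe1, a very large ligase with many substrates, at 3.87 ± 0.678 against 5.5 ± 0.803 FPKM (SD, n = 4 each; limma adjusted p = 0.695 for each). These transcripts are long, with a median of 4286 bases over the 17 genes against 2098 bases over all genes tested. With the length trend removed the list median was -0.20, with 11 of 17 negative, and the groups of Huwe1 and Herc2 overlapped; with TPM those of Herc2 overlapped, and without L-OBCs 1 and 2 the median was -0.31, with 12 of 17 negative.

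Among genes reported as substrates of the family, 20 of 27 tested had a negative difference, where 53.6% of all genes tested did. The list median was -0.15 (-0.14 with the length trend removed and -0.02 without L-OBCs 1 and 2). Smad1, the BMP signal transducer and classical substrate of Smurf1, had 4.64, 4.46, 3.10 and 2.74 FPKM in L-OBCs and 5.31, 5.43, 6.98 and 5.52 FPKM in C-OBCs, without overlap (difference -0.54, SE 0.20, limma adjusted p = 0.695). Bmpr1a, a type I BMP receptor, stood at 4.55 ± 0.683 FPKM in L-OBCs and 7.69 ± 2.30 FPKM in C-OBCs, and Fgfr1, an FGF receptor, at 37.9 ± 6.72 against 57.3 ± 17.3 FPKM (limma adjusted p = 0.695 for both), with overlapping groups in each. Igf1r, the receptor of IGF1 and named after its values were seen, was the other gene of the list without overlap, at 1.99 ± 0.152 FPKM in L-OBCs and 2.74 ± 0.521 FPKM in C-OBCs. Jun, a subunit of AP-1 and also named after its values were seen, was the gene of the 76 that was higher at an unadjusted p under 0.05, with a mean of 523 FPKM in L-OBCs and 356 FPKM in C-OBCs (difference 0.55, SE 0.23, limma adjusted p = 0.695). Runx2, the osteoblast master factor and also named after its values were seen, differed by -0.20 (SE 0.26) with overlapping groups. Cxcr4 was too low to be tested. The PY pattern is found in 15 of the 28 coding sequences of this list, where 6.02% of all genes with a complete coding sequence hold it. The list was drawn up from reported substrates of these ligases, so its share is fixed in part by the choice.

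Among adaptors and regulators beyond Ndfip1 and Ndfip2, 17 of 20 genes had a negative difference, where 53.6% of all genes tested did. The list median was -0.11 and was the same with the length trend removed. Without L-OBCs 1 and 2 it was -0.09, with 13 of 20 negative. The kinase gene Sgk3, a relative of Sgk1, had 6.26, 5.90, 7.02 and 7.60 FPKM in L-OBCs and 8.15, 9.34, 7.82 and 8.77 FPKM in C-OBCs, without overlap (difference -0.31, SE 0.16, limma adjusted p = 0.695). Ldlrad4, a membrane protein that dampens TGF-beta signalling, stood at 12.3 ± 1.74 FPKM in L-OBCs and 15.3 ± 1.83 FPKM in C-OBCs (limma adjusted p = 0.698), and Arrdc2, an alpha-arrestin, at 5.63 ± 2.30 against 3.53 ± 1.34 FPKM (limma adjusted p = 0.695). Sgk1, the kinase that restrains Nedd4l and named after its values were seen, differed by -0.07 (SE 0.18) at a mean of 223 FPKM in L-OBCs and 231 FPKM in C-OBCs. The PY pattern is found in 18 of the 20 coding sequences, where 6.02% of all genes with a complete coding sequence hold it. The share of the list was fixed in part by drawing it up from proteins known to carry the motif.

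Ubiquitin, E1 and E2 genes were evenly divided, with 6 of 12 negative, where 53.6% of all genes tested were negative. Their median was -0.07, which was -0.04 with the length trend removed and -0.16 without L-OBCs 1 and 2. The median transcript length was 1052 bases in this list, against 2098 bases over all genes tested. Rps27a, which encodes ubiquitin fused to a ribosomal protein, had 129.98, 110.8, 39.4 and 18.6 FPKM in L-OBCs and 39.7, 27.6, 22.5 and 14.2 FPKM in C-OBCs (difference 1.2, SE 0.56, limma adjusted p = 0.695). The high values were those of L-OBCs 1 and 2, the libraries rich in short transcripts. The part of transcript length in these values was not tested. The conjugating enzyme genes Ube2e2 (6.19 ± 2.53 FPKM in L-OBCs and 8.45 ± 1.32 FPKM in C-OBCs) and Ube2d2a (21.3 ± 2.66 against 26.0 ± 1.5 FPKM) overlapped between groups (limma adjusted p = 0.695 for both).

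**Figure D4:**
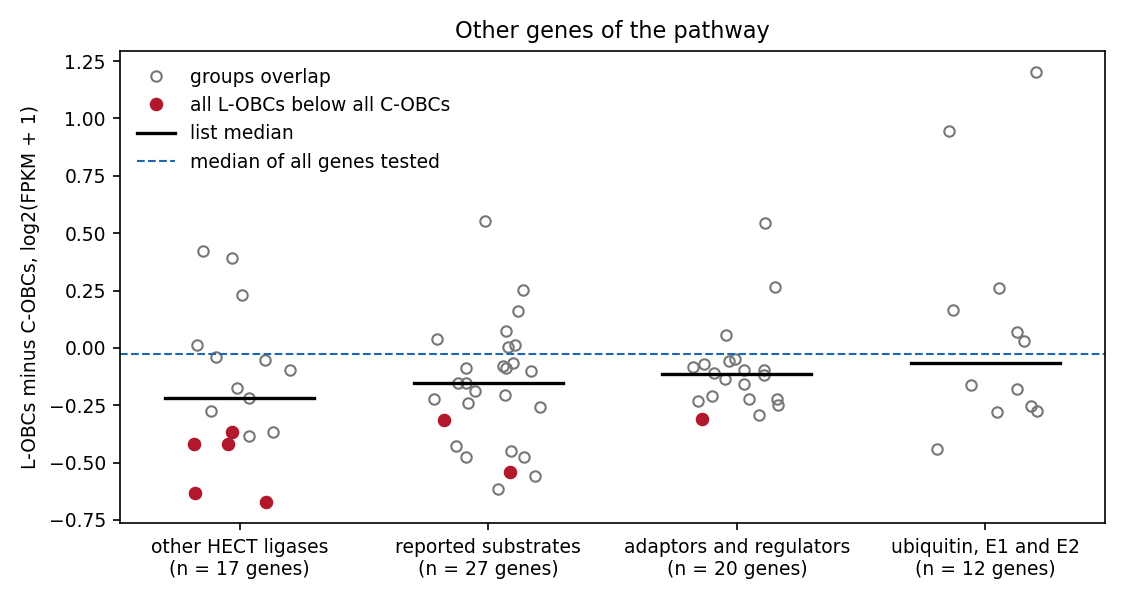
L-OBC minus C-OBC difference of log2(FPKM + 1) for each tested gene of 4 lists, with the list median as a black line and the median of all genes tested as a dashed line at -0.02. Red points are the 8 genes whose L-OBC libraries all lie below all C-OBC libraries, 5 of them HECT ligases; none passed limma with adjustment over all genes.

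The genes whose levels followed Ndfip2 most closely over the 8 libraries included the HECT ligase Trip12. Among the 10960 tested genes other than those with predicted or clone symbols, the 5 highest Pearson correlations of log2(FPKM + 1) with Ndfip2 included those of Ino80c (r = 0.978), a subunit of a chromatin remodeller, Rnps1 (r = 0.961), a splicing and exon junction factor, Lpgat1 (r = 0.956), an acyltransferase, and Trip12 (r = 0.955). In all, 39 genes reached 0.9. This likeness holds the difference between the groups for which Ndfip2 was chosen, as well as the length trend that libraries share, and it is given as a description. After each group mean was subtracted, the closest genes were Mrpl1 (r = 0.975), of the mitochondrial ribosome, Tjp1 (r = 0.973), of tight junctions, Hnmt (r = 0.972), a histamine methyltransferase, Sgce (r = 0.965), a sarcoglycan, and Arhgap42 (r = 0.959), a GTPase activator, so no gene was among the closest 5 by both measures. Within the family, Ndfip1 (r = 0.73, rank correlation 0.52) was then the closest to Ndfip2, but only at rank 584 of the 10960 genes. Wwp2 (r = -0.79, rank correlation -0.71) was the most opposed. After this subtraction, 53 genes reached 0.9. Ndfip2 varied more among L-OBCs (coefficient of variation 17.8%) than among C-OBCs (4.61%), so these correlations rest mostly on the 4 L-OBC libraries. L-OBCs 2 held both the highest L-OBC value of Ndfip2 (9.75 FPKM) and the lowest Wwp2 value of the 8 libraries (141 FPKM).

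Markers of other cells were measured beside these genes. The 10 osteoblast markers summed to 44308 to 77889 FPKM in L-OBCs and 44806 to 90263 FPKM in C-OBCs, and none of them was at 0 in all libraries of a group. The 4 Schwann cell markers summed to 39.2 to 59.8 FPKM in L-OBCs and 10.6 to 37.9 FPKM in C-OBCs, without overlap. Which of the 4 genes carried this sum was not examined. The 7 B-lineage markers summed to 1.19 to 14.2 FPKM in L-OBCs and 0.98 to 2.53 FPKM in C-OBCs, with Cd22 and Pax5 at 0 in all C-OBC libraries. The 7 macrophage markers summed to 71.3 to 165 FPKM in L-OBCs and 69.6 to 91.1 FPKM in C-OBCs, and the 6 pan-leukocyte markers to 3.41 to 9.60 FPKM in L-OBCs and 3.01 to 6.80 FPKM in C-OBCs. The summed ranges of the other 6 lists (T cell, neutrophil, erythroid, endothelial, osteoclast and skeletal muscle) overlapped between the groups. Of these, the erythroid markers summed to 3.42 to 1907 FPKM in L-OBCs and 31.8 to 825 FPKM in C-OBCs, a wide spread between libraries. The osteoclast markers summed to 216 to 289 FPKM in L-OBCs and 181 to 298 FPKM in C-OBCs. The part of these cells in the level of Ndfip2 was not tested.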

How the data were processed

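Libraries were made from RNA of the sorted OBCs with a SMART-Seq v4 kit for small inputs, per the labels' protocols. The authors deposited 1 table of FPKM values with 2 decimals for 17068 genes, with their group means and a log2 column of L-OBCs over C-OBCs, per the file headers. Named without settings are GRCm38.p6 and the tools RSEM 1.2.8, HISAT2 2.0.4, Bowtie2 2.2.5 and DESeq2, per the submitters' processing notes. RSEM shares multi-mapped fragments between genes. Steps of single reads were not found in ratios of low values (at most 2.58% of genes in a bin of 0.03 on the log2 scale), so no counting interval is given.

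Values were analysed as log2(FPKM + 1). The 11214 genes reaching 1 FPKM in 4 libraries or more were fitted with limma 3.58.1 (R 4.3.3) with a mean-variance trend, no covariates, two-sided, with Benjamini-Hochberg adjustment at 0.05. This step was tested on simulated data. Standard errors of the 9 genes come from their own pooled group variance, those of other genes from limma. Level order was tested with scipy 1.17.1. Transcript lengths, overlaps and coding sequences were read from GENCODE M21, in which 99.1% of tested genes had a length. The length trend was removed by lowess (span 0.3). Gene positions are those of RefSeq for this build; Spart was matched as Spg20.

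The members and lists were chosen with earlier results of these data known. Named were all 9 members, per list the 3 genes with the smallest p, and the 5 genes most like Ndfip2 by each of 2 measures; some of these are not reported here. Alternatives were other pseudocounts, filters, scalings and variance settings, the replicate block, length correction and leaving out libraries. All per-library columns were mapped by the labels.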

Additional observations from a re-analysis of the deposited data

Results flagged for a closer look

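Among the 21 genes named with values by library, 42 groups of 4 libraries were checked for a library far from the others, which chance flags in about 1 in 20 groups, and 2 stood out. Smad1 in C-OBCs 3, at 6.98 FPKM, lay far above the other 3 C-OBC libraries. Trip12 in C-OBCs 1, at 6.02 FPKM, lay far below the other 3 C-OBC libraries. Neither was among the 9 adaptor and ligase genes.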

How the results depend on the processing

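The difference of Ndfip2 was between -0.93 and -0.71 in all 20 alternatives run, and between -0.90 and -0.71 when a library was left out. All of these reuse the values for which Ndfip2 was chosen. The filters and the replicate block could not move its estimate, so the alternatives are not independent checks. Over all genes, limma called 0 higher genes as reported, 1 without the low-value filter, 4 with totals rescaled to TPM, 3 with quantile normalization, 6 with array weights and 1 with the length trend removed and the replicate block; leaving out a library gave 0 to 2, with 2 without L-OBCs 4. At an unadjusted p under 0.05 the 279 higher and 463 lower genes became 1237 and 506 without L-OBCs 4, 680 and 864 with array weights, 426 and 394 after the correction for length, and 633 and 405 with the replicate block; the cause was not tested. No alternative called a lower gene or a gene of the 5 lists. With the replicate block, 0 higher and 0 lower genes passed, and Ndfip2 stayed at -0.81, which a balanced block cannot move. The labels give same-numbered libraries only a number in common. Their deviations had correlations of -0.072 to 0.22, and 3 of 8 libraries correlated best with their own number. Whether they share a batch or a pairing cannot be told from these values. Of the 8 neighbouring pairs of levels, 3 passed, and the count was the same in every alternative run. As reported, this count includes the pair of Nedd4 and Ndfip2, which is not read as a test because Ndfip2 was part of the choice. Wwp1 ranged from -0.81 to -0.27. Depth is unknown and limits the low genes most. An arm left with 2 or 3 libraries was assumed to vary like the other.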
